A study of Mus musculus with 4 samples.

Results

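The regions described here were called as open chromatin in both libraries from esculetin-treated RAW264.7 cells and in neither library from DMSO-treated cells. They numbered 297 of the 35988 regions obtained when the peaks of the 4 ATAC-seq lists were merged on chromosomes 1 to 19 and X, or 0.825% of all merged regions. Peaks that shared at least 1 bp were joined. Because the regions were chosen by the peak calls themselves, their presence in the esculetin lists and absence from the DMSO lists is a description and was not tested.

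RAW264.7 is a mouse macrophage cell line, wild type in genotype according to the labels, and ATAC-seq marks open chromatin by the insertions of the Tn5 transposase. A peak pools all cells of a library, so that more open cells and more signal per cell cannot be told apart. All 4 libraries came from cells loaded with 25 ug/mL oxidized LDL carrying the dye DIL (DIL-oxLDL) for 24 h. The DMSO group (n = 2) received no esculetin, and the esculetin group (n = 2) received 40 ug/mL of this plant coumarin for the same 24 h. The labels do not say whether the libraries of a group came from separate cultures, so agreement between them may be technical. The peak names in the esculetin lists number these libraries 2 and 3, whereas their titles number them 1 and 2, and the titles are followed here.

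Open chromatin is DNA that is not wrapped tightly on nucleosomes, and it is found mainly at promoters, where transcription starts, and at enhancers, which lie within or between genes and bind the factors that give a cell type its identity. Promoters rich in CpG tend to be open in most cell types, whereas distal sites vary more between cell types and states. In macrophages loaded with lipid, such sites are known to respond to nuclear receptors and to inflammatory factors such as NF-kB and AP-1.

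The DMSO lists held 19595 and 27833 peaks in replicates 1 and 2, and the esculetin lists held 8677 and 12792. The background coverage solved from each list, used as the measure of depth, was 6.51 and 4.08 reads for DMSO and 4.97 and 4.1 reads for esculetin, so the depths of the groups overlapped. DMSO replicate 2 stood apart from the other libraries, since 7.40% of its summits lay inside annotated pseudogenes against 0.837% to 1.96% in the others. The start of Spi1, which encodes the macrophage factor PU.1, had a peak in all 4 lists, and 7, 7, 1 and 5 of 14 macrophage marker genes had one in DMSO replicates 1 and 2 and esculetin replicates 1 and 2, while none of the T cell, B cell, epithelial and fibroblast markers did in any list.

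Promoter sequence is shown first for the regions at gene starts, because these starts are the best annotated of the regions. Each line gives the 250 bases before a transcription start that lay within 1 kb of a region and whose promoter window overlapped it, 5′ to 3′ on the strand of the gene, from RefSeq on build GRCm38.p6 (the mm10 assembly). The first 7 belong to the strongest regions at coding starts that had such a window, in order of strength, and Fosb, Junb and Srebf1 were added because they are on the gene lists described further on. Capitals mark matches, on either strand, to CCAAT (the NFY motif), TGTGGT (RUNX) or TTGCNNAA (C/EBP), the factor families examined in the study.

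Btbd2 (chr10:80656495-80656744, minus strand): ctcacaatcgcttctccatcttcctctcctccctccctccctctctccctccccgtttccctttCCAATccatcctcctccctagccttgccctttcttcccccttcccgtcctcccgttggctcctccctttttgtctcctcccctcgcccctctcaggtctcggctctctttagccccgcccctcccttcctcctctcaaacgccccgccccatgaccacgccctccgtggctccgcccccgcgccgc
Rps2 (chr17:24719813-24720062, plus strand): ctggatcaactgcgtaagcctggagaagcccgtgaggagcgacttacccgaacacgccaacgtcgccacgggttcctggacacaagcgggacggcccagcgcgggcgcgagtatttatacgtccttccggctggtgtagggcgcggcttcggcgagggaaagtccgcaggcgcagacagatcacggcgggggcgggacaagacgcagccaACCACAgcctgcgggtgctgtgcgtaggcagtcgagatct
Zfp36l1 (chr12:80113014-80113263, minus strand): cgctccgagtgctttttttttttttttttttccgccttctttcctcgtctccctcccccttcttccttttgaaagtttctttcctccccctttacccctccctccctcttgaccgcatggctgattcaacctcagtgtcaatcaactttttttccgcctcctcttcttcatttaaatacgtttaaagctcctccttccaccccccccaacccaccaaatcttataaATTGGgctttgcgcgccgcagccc
Bbc3 (chr7:16310011-16310260, plus strand): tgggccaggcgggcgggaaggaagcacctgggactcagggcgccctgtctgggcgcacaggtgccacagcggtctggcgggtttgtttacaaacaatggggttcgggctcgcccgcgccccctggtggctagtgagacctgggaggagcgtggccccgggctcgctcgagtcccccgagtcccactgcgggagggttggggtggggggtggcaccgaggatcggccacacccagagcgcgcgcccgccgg
Mpdu1 (chr11:69662650-69662899, minus strand): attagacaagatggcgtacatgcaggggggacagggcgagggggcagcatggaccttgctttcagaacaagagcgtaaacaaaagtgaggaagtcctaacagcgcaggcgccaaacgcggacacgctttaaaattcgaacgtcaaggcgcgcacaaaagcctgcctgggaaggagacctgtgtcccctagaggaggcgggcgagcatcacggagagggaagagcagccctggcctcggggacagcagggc
Stard3 (chr11:98358118-98358367, plus strand): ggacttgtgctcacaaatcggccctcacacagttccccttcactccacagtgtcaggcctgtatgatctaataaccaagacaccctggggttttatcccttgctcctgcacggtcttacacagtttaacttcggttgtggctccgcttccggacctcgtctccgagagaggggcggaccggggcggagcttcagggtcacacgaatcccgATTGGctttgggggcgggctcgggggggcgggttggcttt
Rxrb (chr17:34031562-34031811, plus strand): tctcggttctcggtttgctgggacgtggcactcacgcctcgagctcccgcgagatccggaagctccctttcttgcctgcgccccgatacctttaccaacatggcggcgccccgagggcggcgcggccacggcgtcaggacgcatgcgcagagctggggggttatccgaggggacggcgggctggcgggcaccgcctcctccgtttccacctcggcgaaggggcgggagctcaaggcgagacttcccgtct
Fosb (chr7:19310046-19310295, minus strand): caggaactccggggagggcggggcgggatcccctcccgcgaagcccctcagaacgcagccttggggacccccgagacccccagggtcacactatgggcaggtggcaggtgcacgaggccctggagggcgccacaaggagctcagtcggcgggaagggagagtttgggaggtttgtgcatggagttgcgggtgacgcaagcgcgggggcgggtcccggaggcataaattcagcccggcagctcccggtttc
Junb (chr8:84978749-84978998, minus strand): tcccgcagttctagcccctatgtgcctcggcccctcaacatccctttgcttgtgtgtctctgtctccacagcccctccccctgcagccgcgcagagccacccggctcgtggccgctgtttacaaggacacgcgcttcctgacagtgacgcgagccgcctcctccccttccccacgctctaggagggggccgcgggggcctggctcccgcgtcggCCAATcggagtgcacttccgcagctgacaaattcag
Srebf1 (chr11:60220628-60220877, minus strand): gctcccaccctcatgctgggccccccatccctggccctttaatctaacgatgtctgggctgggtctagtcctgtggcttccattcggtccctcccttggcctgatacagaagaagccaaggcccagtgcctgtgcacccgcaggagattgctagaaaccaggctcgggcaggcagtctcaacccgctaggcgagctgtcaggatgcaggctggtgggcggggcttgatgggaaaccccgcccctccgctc

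CCAAT was found in the printed bases of Btbd2, Zfp36l1, Stard3 and Junb, and TGTGGT in those of Rps2. A second Bbc3 start at the same region (window chr7:16310181-16310430, not printed) had CCAAT, whereas the printed Bbc3 bases, before the start nearer to the centre of the region, did not. None of the 10 held TTGCNNAA in these bases. A match is a description of the letters and not a bound site.

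The places of the regions were compared with those of other merged regions. Of the 297 regions, 120 (40.4%, 95% interval 34.8 to 46.2) had their centre within 1 kb of a gene start, 98 (33.0%) lay inside a gene away from its start, and 79 (26.6%) lay between genes. The intervals are exact binomial ones and cover counting error only. Over all merged regions the share at gene starts was 36.3%, inside the interval of the esculetin-only regions. The other shares lay outside their intervals, with 45.0% of all merged regions inside genes (27.7 to 38.7 for the esculetin-only regions) and 18.7% between genes (21.7 to 32.0). The share at gene starts was 26.5% in regions called in both DMSO lists and no esculetin list, 64.4% in the 478 regions called in both esculetin lists and 1 DMSO list, and 82.6% in the 6174 regions called in all 4 lists. The esculetin-only regions thus lay between the DMSO-only and the shared regions in this share, and their interval overlapped neither. That order needed both esculetin lists, since regions called without esculetin replicate 1 or without replicate 2, where 1 call sufficed, had 23.3% and 22.2% at gene starts.

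**Figure D1:**
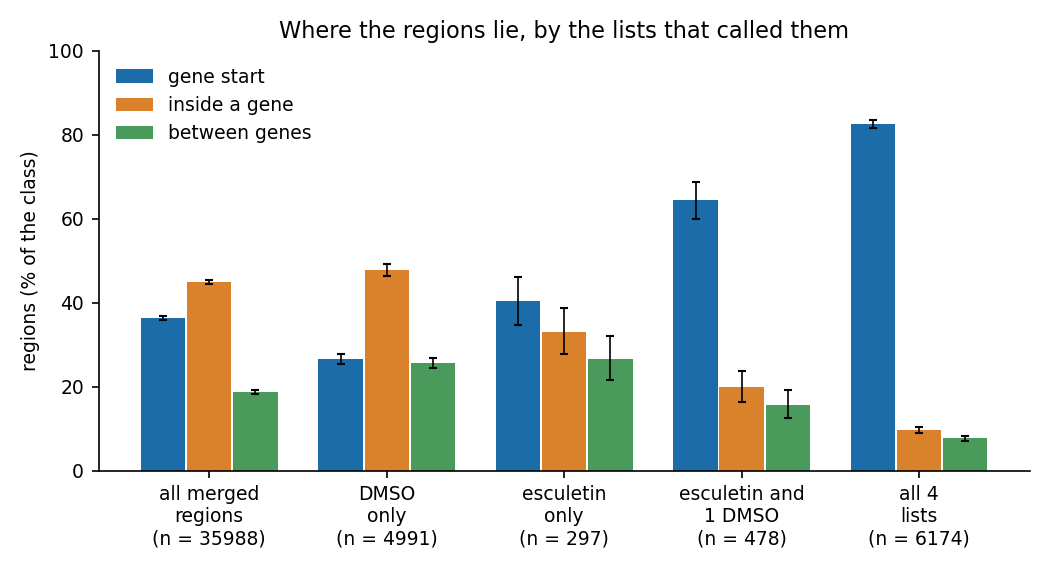
Share of regions (%) at gene starts (centre within 1 kb), inside genes and between genes, for all merged regions and for regions grouped by the lists that called them; error bars are 95% exact binomial intervals. Gene starts held 40.4% of the esculetin-only regions, against 26.5% of the DMSO-only regions and 82.6% of the regions in all 4 lists.

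The share at gene starts also depended on how strong the peaks were, so it was read at similar strength. Strength is given here as the percentile of the −log10 p of a peak within its own list, and the lower of the 2 esculetin percentiles was used to order the regions. Among regions with a lower percentile under 25, gene starts held 42.5% of the 153 esculetin-only regions (34.5 to 50.7) and 71.4% of the 962 regions in all 4 lists (68.4 to 74.3). Among those at 50 or more, the shares were 31.9% of 47 (19.1 to 47.1) and 85.9% of 3670 (84.7 to 87.0). The lower share in the esculetin-only regions was therefore present at each strength compared. When each list was cut to its 8559 strongest peaks, however, 1261 regions were called in both esculetin lists only, and 73.1% of them lay at gene starts. The share at gene starts thus changed with the number of peaks taken from each list.

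The number of regions rested on both DMSO lists. Without DMSO replicate 1 it was 551, with 49.4% at gene starts, and without DMSO replicate 2, the library rich in pseudogene summits, it was 526, with 52.9% at gene starts. Of the 297 regions, 4 (1.35%, 0.368 to 3.41) lay inside an annotated pseudogene, against 6.10% of all merged regions, 4.33% of DMSO-only regions and 0.632% of regions in all 4 lists. The regions were spread over all 20 chromosomes used, from 0.299% of the merged regions of chromosome 3 to 1.24% of those of chromosome 8.

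At gene starts, the nearest gene was protein-coding for 107 of the 120 regions, a long non-coding RNA for 6, a pseudogene for 6 (1 of them transcribed) and a microRNA for 1. Within 1 kb of a coding start lay 109 of the 297 regions (36.7%, 31.2 to 42.5), against 28.5% of all merged regions, 18.3% of DMSO-only regions and 79.7% of regions in all 4 lists. In 27 of the 120, starts on both strands lay within 1 kb. Regions at gene starts had a median width of 418 bp, against 337.5 bp inside genes and 334 bp between genes. Over all 297 the median width was 379 bp, close to the 372 bp of DMSO-only regions, while regions in all 4 lists had a median of 677 bp. Over 50 kb from any gene start lay 30 of the regions (10.1%, 6.92 to 14.1), against 7.10% of all merged regions, 8.74% of DMSO-only regions and 1.94% of regions in all 4 lists.

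The strength of the regions was described next. The median percentile was 29.8 in the list of esculetin replicate 1 and 39.8 in that of replicate 2, and the median of the lower one was 24.2. For regions in all 4 lists the median lower percentile was 57.9, and for those called in 1 DMSO list it was 31.6. In 153 of the 297 regions the lower percentile was under 25, in 61 it was under 10, and in 47 it was 50 or more. Most of the regions thus ranked in the lower part of the esculetin lists, with a minority among the stronger peaks.

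**Figure D2:**
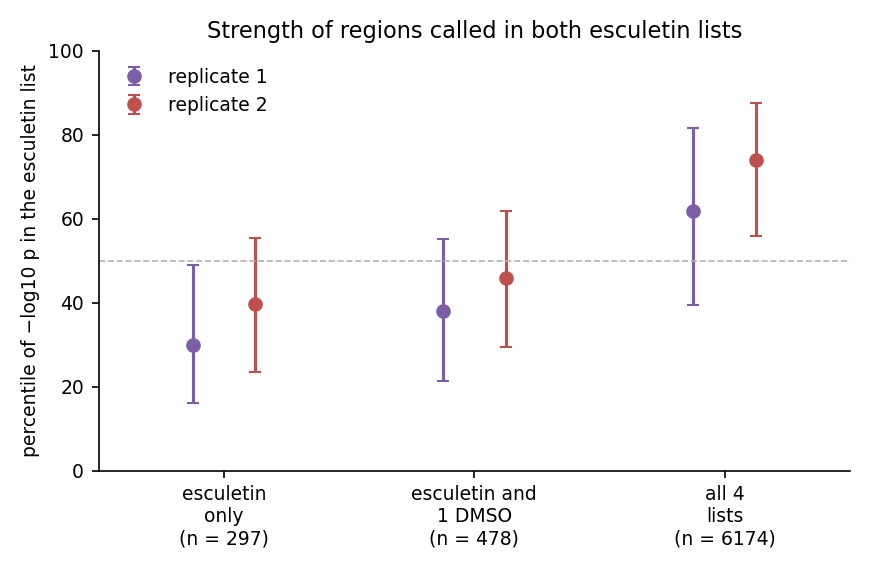
Percentile of the −log10 p of each region within the list of esculetin replicate 1 or 2, for regions called in both esculetin lists, grouped by the DMSO lists that also called them; points are medians and bars run from the lower to the upper quartile. The medians of the esculetin-only regions were 29.8 and 39.8, and those of the regions in all 4 lists were 61.9 and 74.1.

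The agreement of the 2 esculetin libraries within the regions was described next, with overlap of their peaks fixed by the rule. Their summits differed by a median of 45 bp and lay within 100 bp of each other in 230 of the 297 regions. Spearman's rho between the percentiles was 0.451 over the 297 regions and 0.705 over the 6174 regions in all 4 lists, a description only, since every point comes from the same pair of libraries. The percentile was higher in replicate 2 for 181 of 297 regions. At gene starts it was higher in replicate 2 for 85 of 120, and inside genes for 51 of 98. The height of the summit, in reads per read of background coverage, had a median of 5.44 in replicate 1 and 6.34 in replicate 2 and was greater in replicate 2 for 221 of 297.

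**Figure D3:**
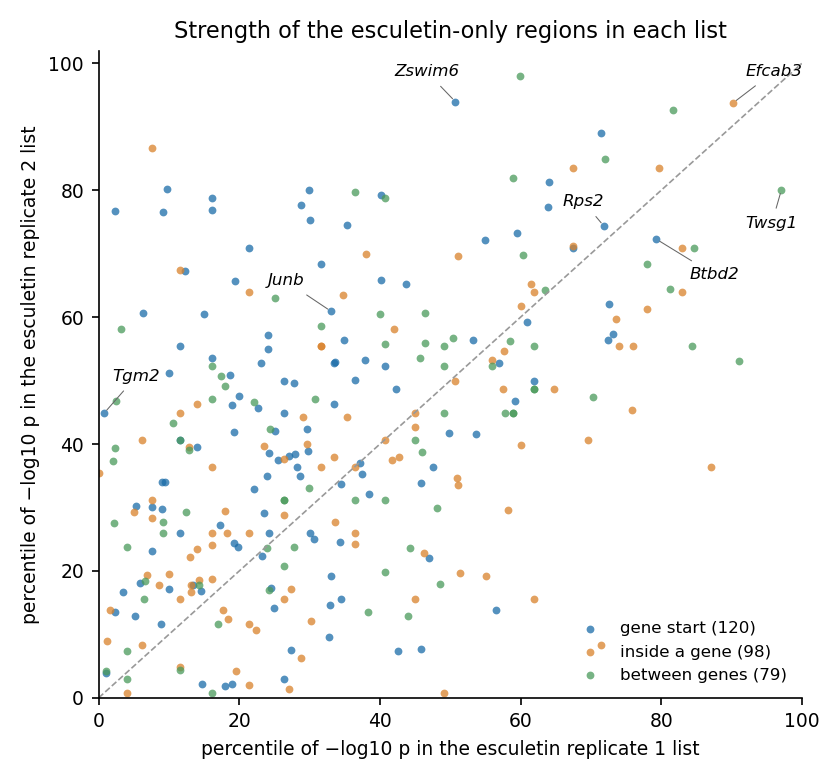
Percentile of the −log10 p of each of the 297 esculetin-only regions in the list of esculetin replicate 1 (x axis) and replicate 2 (y axis), coloured by place, with the line of equality dashed. Regions fill the lower left more densely, Efcab3 and Twsg1 lie in the upper right, and regions such as Tgm2 were near the bottom of the replicate 1 list only.

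The strongest regions were mostly away from coding starts, as were 188 of all 297 regions. Of the 15 with the highest lower percentile, 2 were at a coding start (Btbd2 and Rps2) and 2 at the start of a non-coding gene (the long non-coding RNA Gm46178 and the pseudogene Gm8357). The first in order lay inside Efcab3, a gene named for its EF-hand calcium-binding domain, at chr11:105102863-105103178. Its summit had 48 reads in esculetin replicate 1 and 50 in replicate 2, at percentiles 90.2 and 93.8, and the closest DMSO peak was 22987 bp away. Both libraries thus ranked it near the top of their lists, with summits 10 bp apart.

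The next regions by strength lay between genes or inside introns or exons that were not told apart here. A region at chr2:166441781-166442046, 5538 bp upstream of the long non-coding RNA 5031425F14Rik, had 46 and 56 reads at percentiles 81.7 and 92.6. Upstream of Twsg1, which encodes a secreted protein that binds BMPs, the region chr17:65961346-65962188 had 74 and 43 reads at percentiles 97.1 and 80.1 and lay 10580 bp from the start. Inside Ica1, an islet cell autoantigen that acts in vesicle traffic, chr6:8730057-8730312 had 40 reads in both libraries at percentiles 79.6 and 83.5. These regions had a DMSO peak no closer than 4548, 9930 and 47555 bp, and each ranked at 79.6 or higher in both esculetin lists.

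Other strong distal regions lay inside Greb1, a gene known as an oestrogen target, at percentiles 83.0 and 70.9, and inside Ror2, which encodes a receptor tyrosine kinase for Wnt5a, at 67.5 and 71.2. A region inside Il1rapl1, which encodes a synaptic relative of the interleukin-1 receptor accessory protein, ranked at 67.5 and 83.5. Upstream of Camsap2, a protein of microtubule minus ends, a region ranked at 81.2 and 64.4. Several of these genes are best known from tissues other than macrophages, and the nearest gene is given here as a position only.

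At coding starts, the strongest region was that of Btbd2, which encodes a BTB domain protein, at chr10:80656272-80657123. It had 56 and 44 summit reads at percentiles 79.3 and 72.3, and a DMSO replicate 2 peak lay 1219 bp away. The region at Rps2, which encodes a protein of the small ribosomal subunit (chr17:24719806-24720240), had 45 and 47 reads at percentiles 71.9 and 74.4, with a DMSO replicate 2 peak 201 bp away. In both cases the closest DMSO peak was in replicate 2. The peak beside Rps2 ranked at percentile 90.2 of that list, with a height of 16.9 against a mean of 10.3 for the region.

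Of the other genes among the 15 strongest regions at coding starts, 3 are described in full. Zfp36l1, which encodes a protein that binds AU-rich elements and promotes mRNA decay, had a region at chr12:80112829-80113477 with 41 and 51 reads at percentiles 64.1 and 81.4. Bbc3, which encodes the pro-apoptotic protein PUMA, had one at chr7:16309855-16310417 with 56 and 45 reads at percentiles 72.5 and 62.2. Stard3, a late endosomal protein that moves cholesterol between membranes, had one at chr11:98358167-98358761 with 36 and 33 reads at percentiles 60.9 and 59.3. The Stard3 region was the farthest of these from DMSO signal, with the closest DMSO peak at 15259 bp, against 2279 bp for Zfp36l1 and 253 bp for Bbc3.

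The rest of the 15 strongest regions at coding starts began with Noc2l (percentiles 63.9 and 77.3), an inhibitor of histone acetylation. Next came Mpdu1 (59.5 and 73.3), which acts in glycan synthesis, Rxrb (73.1 and 57.3) and Eef2 (72.5 and 56.5), a translation elongation factor. Then followed Fnbp1 (53.2 and 56.4), which binds curved membrane, Pgpep1 (56.9 and 52.8), a peptidase, and Zswim6 (50.7 and 94.0). Peli3 (61.9 and 50.0) is a ubiquitin ligase of Toll-like and interleukin-1 receptor signalling. The last were Msl1 (59.3 and 46.7), a scaffold of a histone acetyltransferase complex, and Fosb (43.8 and 65.2). Of the 109 regions at coding starts, 20 had the summit of a DMSO peak within 1 kb of the same start. These were 13 in DMSO replicate 1 and 16 in replicate 2, whereas 89 had none in either list. The rule left out regions that overlapped a DMSO peak, so the 89 largely follow from it and do not show closed starts. The same count was not made for other classes. The closest DMSO peaks ranked at percentiles 81.9 and 61.8 beside Noc2l, and in replicate 2 at 13.8 beside Bbc3 and 32.4 beside Msl1.

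The genes near the regions were then set against the lists of genes linked to oxLDL handling. Over all 21187 protein-coding genes with a known start, 229 (1.08%) were the nearest coding gene of a region at up to 50 kb, and 119 (0.562%) had their start within 1 kb of a region. None of the 14 genes of C/EBP, NFY and RUNX factors, the 19 of cholesterol and modified LDL uptake, the 35 of phagocytosis or the 20 of the NRF2 response was nearest to a region. The counts were 1 of 23 for cholesterol efflux, esterification and synthesis (Srebf1), 1 of 27 for fatty acid handling and PPAR (Rxrb), and 4 of 41 for NF-kB, AP-1 and inflammation (Fosb, Il10, Il1b and Junb). Against the background of 1.08%, a list of this size holds less than 1 such gene on average, so the absence from 4 lists carries no information about them.

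The AP-1 genes Fosb and Junb, which encode subunits of that factor, both had regions at their starts. The Fosb region (chr7:19309988-19310486) had 34 and 41 summit reads at percentiles 43.8 and 65.2, and the Junb region (chr8:84978424-84978996) had 40 and 52 at percentiles 33.1 and 60.9. DMSO signal was close to both, with a DMSO replicate 1 peak 2 bp from the Junb region and a replicate 2 peak 618 bp from it, and DMSO peaks 1118 and 1135 bp from the Fosb region. At Junb the peaks of the groups thus lay side by side and did not overlap. The DMSO replicate 1 peak there ranked at percentile 81.1 of its list, with a height of 11.1. That of replicate 2 ranked at 39.9, with a height of 10.3, against a mean of 10.4 for the region.

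The cytokine genes had weaker regions outside their starts. A region 2322 bp upstream of Il1b, inside its antisense RNA Il1bos (chr2:129373277-129373645), had 20 and 32 reads at percentiles 11.6 and 67.4. A region past Il10, 6116 bp downstream of its start (chr1:131025781-131026141), had 21 and 20 reads at percentiles 9.11 and 25.9. The closest DMSO peaks were 4529 and 12043 bp away. Both regions thus ranked low in the list of replicate 1, and that at Il1b ranked higher in replicate 2.

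Regions at lipid regulators were stronger at Rxrb than at Srebf1. Rxrb encodes a retinoid X receptor, the partner of PPARs and liver X receptors, and its region (chr17:34031568-34031967) had 51 and 42 reads with the closest DMSO peak at 2552 bp. Slc39a7, a zinc transporter, starts on the other strand within 1 kb of it. Srebf1 encodes a factor of fatty acid and sterol synthesis, and its region (chr11:60220324-60220755) had 25 and 22 reads at percentiles 23.5 and 29.1, with a DMSO replicate 1 peak 1968 bp away.

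Starts of some highly expressed genes were also among the regions, named here after their values were seen. They included the ribosomal protein genes Rpl8, Rpl19 and Rpl38, the actin gene Actg1, the vacuolar ATPase subunit genes Atp6v0b and Atp6v0c, and the lysosomal saposin gene Psap. They belong to no fixed list and are examples only. The lower percentile was 13.8 at Psap and 41.7 at Atp6v0c, and at Rps2 and Eef2, named above, it was 71.9 and 56.5. For Rpl19 the closest DMSO peak was 24952 bp away, and for Actg1 it was 1036 bp away.

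A region beside the microRNA gene Mir142, which is known for its expression in blood cells, was also noticed after its values were seen. It lay at chr11:87756477-87756816 with percentiles 53.6 and 41.6, and DMSO peaks lay 823 and 607 bp from it. The mature sequences from that gene are shown with the seed, bases 2 to 8, in capitals, since the seed decides which mRNAs a microRNA can pair with.

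mmu-miR-142a-5p (chr11:87756867-87756887, plus strand): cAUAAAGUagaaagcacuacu
mmu-miR-142a-3p (chr11:87756903-87756925, plus strand): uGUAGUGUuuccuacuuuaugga

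The distance of the regions from DMSO peaks was measured from edge to edge. The closest DMSO peak lay a median of 8322 bp away, and it was within 500 bp for 35 regions, within 1 kb for 55 (18.5%, 14.3 to 23.4) and within 5 kb for 118, while 36 regions were over 100 kb from any. Regions at gene starts were nearer, with a median of 3050 bp and 34 of 120 (28.3%) within 1 kb. The medians were 17215 bp inside genes and 13542 bp between genes. Most of the regions thus lay over 1 kb from a DMSO peak, and a minority flanked one. Overlap with a DMSO peak was excluded by the rule, so their separation is in part built in. The same distances were not measured for other classes of regions.

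**Figure D4:**
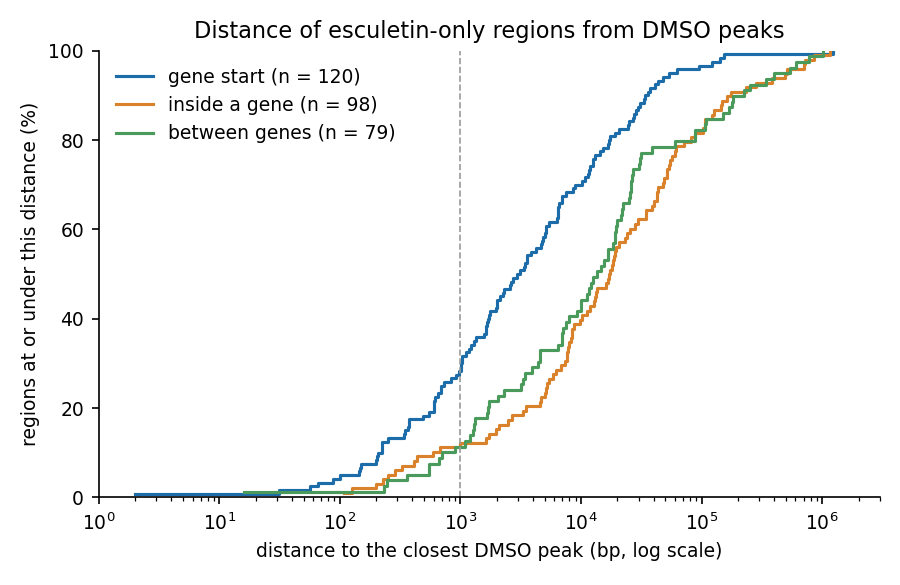
Cumulative share (%) of the esculetin-only regions at or under a given distance from the closest DMSO peak (bp, log axis), by place; the dashed line marks 1 kb. The curve of regions at gene starts (median 3050 bp) lies to the left of those inside genes (17215 bp) and between genes (13542 bp).

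The regions nearest to a DMSO peak after Junb were 1 between genes, 15619 bp downstream of the start of the vomeronasal receptor gene Vmn2r121 (16 bp), and those at the starts of Larp4b, an RNA-binding protein gene (31 bp), Sgms1, which encodes sphingomyelin synthase (57 bp), and Tm9sf1 (66 bp). Just outside the rule, regions called in both esculetin lists overlapped a DMSO replicate 2 peak by 4 bp at Mir7045, 39 bp at Pld2, 73 bp at Csrnp1, 77 bp at Ddx6 and 80 bp at Atxn2. Of the 478 regions called in 1 DMSO list, 252 were called in replicate 1 and 226 in replicate 2, and in 151 of them the DMSO peak ranked under the 25th percentile of its list. At Junb and Mir7045 a few bases decided whether a region was counted. The DMSO replicate 1 peaks beside the regions at Vmn2r121, Larp4b, Sgms1 and Tm9sf1 ranked at percentiles 31.6, 97.4, 76.0 and 13.2 of their list.

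At the other end, the regions farthest from any DMSO peak had a pseudogene as the nearest start in 4 of the 5 cases. That start was 106 to 435421 bp away, so it is a position only. The region at the start of the pseudogene Gm8357 was 1223096 bp from one, with percentiles 67.5 and 70.9, and that inside Il1rapl1 was 1150023 bp away. The next was 191689 bp from the start of the pseudogene Gm18082, with the closest DMSO peak at 1012679 bp. The others were inside Dthd1 (853429 bp) and 4050 bp upstream of 4921511C20Rik (777647 bp). Of these 5, the Dthd1 region was the weakest, at percentiles 16.1 and 36.3.

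Some regions lay close together. Inside Hivep2, which encodes a zinc finger factor that binds NF-kB-like sites, and upstream of 1 of its starts, 2 regions were 567 bp apart at percentiles 12.9 and 39.5 and at 3.44 and 16.6. Beside Zfp36, which encodes the mRNA decay factor tristetraprolin, 2 regions lay 561 bp apart with percentiles 22.2 and 46.7 and 46.4 and 56.0, both upstream of the gene. The other pairs within 20 kb were those at Git1 and Trp53i13, Ccdc9 and Bbc3, and Gm40369 and Gm40367. The last pair had local backgrounds 7.41 and 7.25 times the genome background, the first being the highest of all, and 24 of the 297 regions exceeded 2 times.

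The weakest and the longest regions mark the other limits of the set. The lowest percentiles were inside Capg, which encodes an actin-capping protein of macrophages (0.0807 and 35.4), at the start of Tgm2, a transglutaminase gene (0.755 and 44.8), and in the region past Vmn2r121 (16.1 and 0.829). Regions inside Grip1 (3.98 and 0.829) and Nell2 (49.1 and 0.829) tied with the last. The Grip1 region was thus weak in both libraries, and those at Capg, Tgm2 and Nell2 in 1 of them. Among the longest regions was 1 of 1183 bp inside Nfic, with summits 514 bp apart. Another was 1 of 1059 bp, 33814 bp from the start of Gm34058, with summits 323 bp apart. In those the peaks of the 2 libraries had distinct summits.

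The lists give no value in DMSO for a region without a DMSO peak, so the height that a DMSO call would have needed was computed instead. Each region was given the same height over background and the same local background in each DMSO library as the mean of the esculetin libraries, and the weakest −log10 p of that DMSO list was taken as its limit. All 297 regions were over the limit of both DMSO lists, and so were all 478 regions called in 1 DMSO list and all 6051 regions of the 4 lists that could be computed, so this largely follows from the rule. The height over the limit had a median of 1.86 times in DMSO replicate 1 and 1.60 times in DMSO replicate 2. It was 2 times or more for 104 and 45 regions, and the lowest values were 1.27 and 1.09 times.

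Heights in DMSO are not the same as in esculetin even where all libraries have a peak. In regions of all 4 lists the median ratio of DMSO to esculetin height was 0.815 in DMSO replicate 1 and 1.12 in replicate 2. The quartiles were 0.672 and 0.992 in replicate 1 and 0.916 and 1.38 in replicate 2. With the heights scaled by the medians, all 297 regions were over both limits. Ratios below the medians were not applied, so this does not cover their spread. A call also needs a stretch of signal of the least length, and the DMSO background at the regions is not known. At DMSO peaks within 1 kb of a region the local background was a median of 0.890 times that of the region in replicate 1 (n = 33) and 0.999 times in replicate 2 (n = 43, leaving out 3 regions beside DMSO peaks with a −log10 p over 60, for which no background was solved), and with it 33 and 39 of these regions were over the limit. How far the DMSO signal lay under the limit at each region was not measured.

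The promoters at the regions were read for base composition and motifs. In the RefSeq promoter table, 128 windows of 112 genes had a start within 1 kb of a region and overlapped it, and each window runs from 250 bases before a start to 50 after it. Their median GC content was 65.3%, against 64.0% at regions of all 4 lists and 53.0% over all 32619 windows. The median ratio of observed to expected CpG was 0.888, against 0.850 and 0.387. In both measures the promoters at the esculetin-only regions were close to those that were open in every library.

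The motifs searched on both strands included CCAAT (NFY), TGTGGT (RUNX), TTGCNNAA (C/EBP), GGGCGG (SP), CCGGAAG (ETS) and GAGGAA (PU.1), and a base could count for more than 1 motif. CCAAT was in 35.2% (26.9 to 44.1) of the 128 windows, against 44.7% at regions of all 4 lists and 37.6% of all windows. TGTGGT was in 9.38% (4.94 to 15.8), against 10.3% and 16.6%, and TTGCNNAA was in 4.69% (1.74 to 9.92), against 6.76% and 10.9%. In windows at DMSO-only regions the shares were 34.2%, 14.5% and 9.63%. At regions called in both esculetin lists and 1 DMSO list they were 31.7%, 9.94% and 5.90%, so a low share of CCAAT was not particular to the esculetin-only regions. The interval of CCAAT thus lay below the share at regions of all 4 lists, and those of TGTGGT and TTGCNNAA lay below the shares of all windows and held those at regions of all 4 lists. Some of the 128 windows overlap or share a region, so that the intervals, which take them as separate, are too narrow.

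GGGCGG was in 79.7% of the windows (71.7 to 86.3), against 77.1% at regions of all 4 lists and 35.9% of all windows, and CCGGAAG was in 26.6% (19.1 to 35.1), against 22.8% and 8.92%. At regions called in both esculetin lists and 1 DMSO list the shares of GGGCGG and CCGGAAG were 68.9% and 17.7%, below these intervals. GAGGAA was in 22.7% (15.7 to 30.9), against 25.1% at regions of all 4 lists and 28.2% of all windows. The AP-1 letters TGANTCA were in 3.13% (0.858 to 7.81), against 3.42% at regions of all 4 lists and 7.85% of all windows. Both GGGCGG and CCGGAAG are rich in G and C, as were the windows, and the part of base composition in these shares was not tested. Sequence at the 177 regions away from gene starts was not read.

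**Figure D5:**
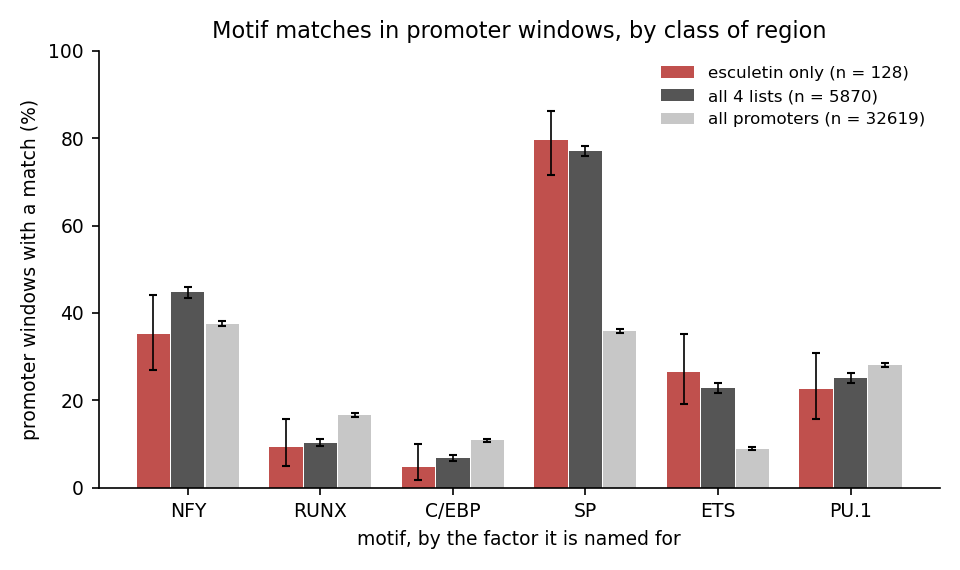
Share (%) of promoter windows with a match to a motif, on either strand, for windows at esculetin-only regions, at regions of all 4 lists and for all windows of the table; error bars are 95% exact binomial intervals. The SP letters were in 79.7%, 77.1% and 35.9% of the windows, and the C/EBP letters in 4.69%, 6.76% and 10.9%.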

How the data were processed

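ATAC-seq peak lists of 4 RAW264.7 libraries were used, grouped by the treatment in the labels. Per the study's methods, the authors used Trim Galore for trimming, Bowtie2 for alignment to mm10, Sambamba to discard duplicate and multi-mapping reads, and MACS2 for peaks. The options, any Tn5 shift included, are not given in the sources used here. A separate peak list was available for each library. The deposited lists give per peak a score, the fold enrichment over background (a linear ratio), and the −log10 p-value and −log10 q-value. These depend on depth, so peaks were ranked within a list. Summit reads and background were solved from fold and p, assuming the published MACS2 formulas, and checked on simulated peaks; read totals were not used here.

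Peaks were merged with a minimum overlap of 1 bp. The members and gene lists were chosen with earlier results of these data known. Named were, by a fixed rule, the 15 strongest regions, the 15 strongest at coding starts, the 5 nearest to and farthest from a DMSO peak, those nearest to a listed gene, pairs within 20 kb, and the 3 weakest and 3 longest; some of these are not reported here.

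Gene starts came from the RefSeq promoter table (GRCm38.p6; 26794 genes) and, for 18083 other genes, from RefSeq gene ends with the strand from GENCODE vM39. Of 15000 genes with both, 99.6% had the same strand. No test was run, since the calls that would be compared define the set; shares carry Clopper-Pearson 95% intervals. The tools were SciPy 1.17.1, NumPy 2.4.6 and pandas 2.3.3 under Python 3.11.15, with figures in matplotlib 3.10.9. Alternatives left out each library, filtered, joined or cut the lists, or changed distances.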

Additional observations from a re-analysis of the deposited data

How the results depend on the processing

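The number of regions was 297, and it was 293 with esculetin peaks at a −log10 q of at least 2, 309 when a DMSO peak had to cover at least 50% of the esculetin peak, or the reverse, to count, 282 when peaks up to 200 bp apart were joined, and 242 counting only regions over 1 kb from every DMSO peak. It rose to 1261 with the 8559 strongest peaks of each list, where 73.1% lay at gene starts, 5.87% had a DMSO peak within 1 kb and the median lower percentile was 39.6; these lists hold fewer DMSO peaks by construction. Leaving out 1 library gave 526 to 2796 regions, 22.2% to 52.9% at gene starts, 12.2% to 19.4% within 1 kb of a DMSO peak and a median lower percentile of 14.2 to 27.9, the highest counts being those with 1 esculetin list, where a single call sufficed. The share within 1 kb of a DMSO peak, 18.5%, was 13.5% with joined peaks, and 11.8% within 500 bp and 39.7% within 5 kb. The share over the DMSO limit was 98.7% with the limit at the median of the weakest 1% of each list. In all other alternatives the shares and the median stayed within their intervals. The use of either gene end, the scaled heights and the 1 kb exclusion were 3 alternatives chosen after seeing the data. No paired analysis was possible because no test was run and the set is defined by calls over both libraries of a group. Depth limits what a missing DMSO peak means, since the lists hold no reads under the call limit.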

Other observations

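Peaks on chromosome Y and on sequences outside the chromosomes were merged separately into 245 regions. Of these, 15 were called in both esculetin lists only (3 of them on chromosome Y), 22 in both DMSO lists only and 56 in all 4 lists.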
